A study of Schmidtea mediterranea with 40 samples.

Results

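Stage 4 (S4) embryos of the planarian Schmidtea mediterranea were compared with stage 3 (S3) embryos, transcript by transcript. The comparison held 8 of the 40 RNA-Seq libraries of the series, 4 of S4 and 4 of S3. S4 embryos were taken on day 4 after egg capsule deposition and their libraries were made from 500 ng of total RNA, whereas S3 embryos were taken on day 3 and their libraries were made from 100 ng. All 8 embryos were whole, untreated offspring of outbred sexual adults that were kept at 20 °C, and each library is 1 embryo, yolk included. RNA input and stage therefore go together and cannot be told apart. For each stage the study made 10 embryo samples and sequenced the 4 it chose by RNA yield and quality, size and shape, so the libraries are not a random draw of embryos. The comparison asks which transcripts change while the embryo, after it has built its temporary tissues, fills with yolk and its dividing cells multiply.

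Planarian embryos develop among yolk cells that are packed beside them in the egg capsule rather than inside the egg. Early cells first build a set of temporary tissues: a primitive ectoderm, a temporary embryonic pharynx that swallows yolk, and a primitive gut that stores and digests it. Cells with piwi-1 transcript, called blastomeres, keep dividing inside this sphere, and in adults the piwi-1 gene marks neoblasts, the pluripotent stem cells. Levels are given as RPKM, reads scaled by transcript length and library depth, on the scale deposited by the authors, and changes as the difference in log2(RPKM + 0.1), S4 minus S3, which understates the change of transcripts near 0. A transcript is called where limma gave a Benjamini-Hochberg adjusted p under 0.05 over all transcripts tested. In whole embryos, fewer cells of a type and less RNA per cell cannot be told apart.

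The 8 libraries held 7.65 to 10.1 M reads on transcripts in S4 and 5.74 to 11.6 M reads in S3. Transcripts of a yolk list, chosen on the yolk and later samples, took 51.6 to 68.7% of the reads in S4 and 44.3 to 74.4% in S3. The S3 embryos were not alike. S3 replicate 4 correlated with the S4 libraries at r = 0.910 to 0.957 and with the other S3 libraries at r = 0.773 to 0.830, over 12541 transcripts of the same table, given as a description. Its r was 0.827 with the mean of the stage 2 (S2) libraries and 0.892 with the mean of the stage 5 (S5) libraries. S3 replicates 1, 2 and 3 stood at 0.918, 0.943 and 0.895 with S2, and at 0.700, 0.613 and 0.725 with S5. S3 replicate 3 held the highest yolk share, 74.4%, and, among the S3 embryos, the lowest levels of 8 temporary tissue markers named further down. Results are therefore also given without S3 replicate 3 and without S3 replicate 4. Both embryos stood out on the same values that are tested. Calls gained without S3 replicate 4, the S3 embryo most like S4, are thus a description and not further evidence.

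**Figure D1:**
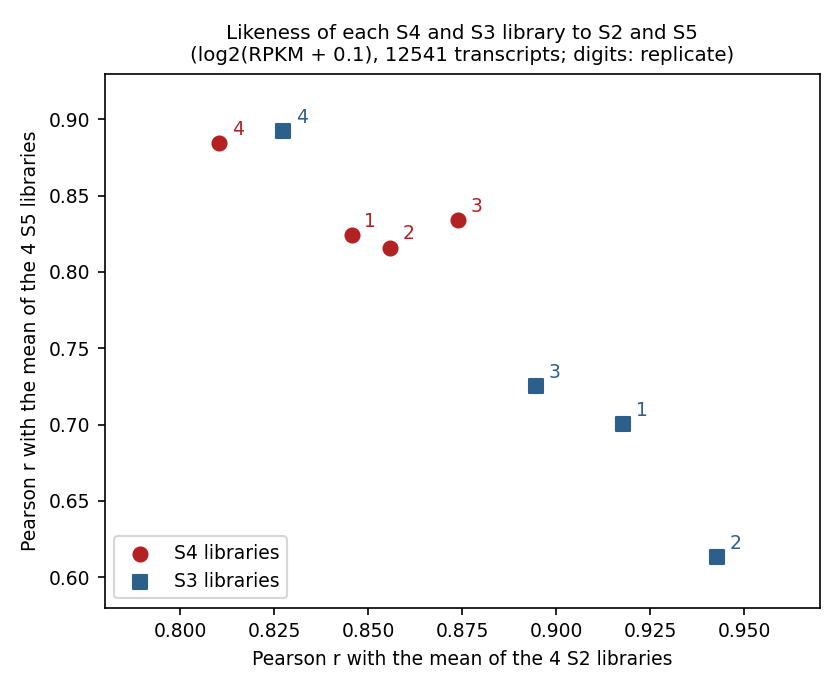
Pearson r of each S4 (circles) and S3 (squares) library with the mean S2 library (x axis) and the mean S5 library (y axis), on log2(RPKM + 0.1) over 12541 transcripts; digits are replicate numbers. S3 replicate 4, at 0.827 and 0.892, lies among the S4 libraries, and the other S3 libraries lie nearer to S2.

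In the S4 embryos 463 of 31489 transcripts tested were called higher (1.47%) and 505 were called lower (1.6%) than in the S3 embryos. Without the authors' TMM scaling factor the counts were 35 higher and 201 lower, and in a fit over the S2 to S5 libraries 4 and 1. Where the higher stage averaged 1 RPKM or more, 294 were called higher and 466 lower, and of these 130 (0.413%) and 207 (0.657%) showed no overlap between the 4 S4 and the 4 S3 values. More of the transcripts lower in S4 than of those higher are in the study's tables. Of 3933 transcripts that the study lists in its tables, 38 were called higher (0.966%) and 302 lower (7.68%). Names and protein matches were taken only from these tables, for 3004 of the 31489 transcripts tested. Among the called transcripts, 24 of the higher and 282 of the lower ones carry one. These tables hold transcripts the study picked for their course over development, so that share does not describe the whole transcriptome.

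These counts rest on a spread that was estimated over 32 yolk and embryo libraries, and the libraries of later stages were more uniform. The median SD between the 4 libraries, on the log2 scale, was 0.462 in S4 and 0.689 in S3, against 0.155 in stage 6 (S6) and 0.153 in stage 8 (S8), so the pooled spread is too small for this pair of stages. In a fit of the 8 S4 and S3 libraries alone, 13 transcripts were called higher (0.0413%) and 4 lower (0.0127%). Of the 968 called transcripts, 860 had an unadjusted p under 0.05 there. They were chosen on the values of the same 8 libraries, so this count is not further evidence. The median adjusted p of the 968 in that fit was 0.635. Calls named below are thus calls of the pooled fit. Among called transcripts that averaged 1 RPKM or more in either stage, S3 replicate 4 was the S3 value nearest to S4 for 240 of 294 called higher (81.6%) and 387 of 466 called lower (83.0%). Leaving out S3 replicate 4, the fit called 2274 higher and 1240 lower, without S3 replicate 3 it called 117 and 224, and without S3 replicate 2 it called 140 and 127. These counts are over 31489 transcripts, and list members counted below in the same fits are to be read beside them. The number called higher was 295 without S3 replicate 1, 272 without S4 replicate 3 and 164 without S4 replicate 4. At the study's own limits (adjusted p under 1e-05, at least 5-fold and at least 1 RPKM), limma called 0 transcripts in either direction. The study applied these limits with edgeR on read counts. It also required an open reading frame and left out transposase and retroviral transcripts. The 0 calls by limma are therefore not the study's own result. An unadjusted p under 0.05 by limma gave 3207 higher and 2131 lower. Voom, limma's method for counts, called 180 higher (0.572%) and 171 lower (0.543%) at an adjusted p under 0.05 on rebuilt reads. Voom and the fits with 1 library left out also pooled the spread over the yolk and embryo libraries. Their calls share that limit and are not separate checks of it. For a single transcript without overlap, the exact permutation test of 4 against 4 embryos can reach no two-sided p below 0.0286.

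Of the 130 called rises without overlap at 1 RPKM or more, 8 are in the study's tables, which supply the names. The named rises below are thus a small part of them. Among the largest called rises without overlap were inhibin-1, named for the TGF-beta family of secreted ligands that bind receptor kinases, and follistatin, named for a protein that binds such ligands. Of 4 ligands 1 was called higher, inhibin-1, and 0 lower (0 by voom, 0 at an unadjusted p under 0.05), and of 9 inhibitors 1 was called higher, follistatin, and 0 lower (0 by voom, 2 at an unadjusted p under 0.05). The share called higher over all transcripts was 1.47%.

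follistatin (SMED30035357), which in vertebrates binds and blocks activins, stood at 27.2, 16.96, 14.7 and 13.2 RPKM in the S4 embryos, against 0.819, 1.27, 0.379 and 3.24 RPKM in the S3 embryos. All 4 S4 embryos lay above all 4 S3 embryos, and S3 replicate 4 was the highest S3 embryo. The transcript rose by a log2 change of 3.87 (SE 0.44, adjusted p = 4.19e-05 by limma), the smallest adjusted p of the comparison, and was called with each of the 8 libraries left out. On 127 to 220 reads per S4 library and 3 to 53 per S3 library, voom also called it (adjusted p = 2.24e-05), whereas the fit of S4 and S3 alone did not (adjusted p = 0.276). Its average was 2.32 ± 1.41 RPKM in S2, 18.02 ± 6.297 in S4, 3.22 ± 0.398 in S5 and 4.803 ± 0.278 RPKM in asexual adults (SD, n = 4 each).

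inhibin-1 (SMED30001798), a ligand whose closest match in the study's annotation is a transforming growth factor beta, stood at 27.6, 2.48, 19.4 and 1.67 RPKM in the S4 embryos, against 0, 0.196, 0.195 and 0.473 RPKM in the S3 embryos. S4 replicates 1 and 3 were high and S4 replicates 2 and 4 low, yet these low ones too lay above every S3 embryo, where the transcript had 0 to 5 reads. It rose by a log2 change of 4.73 (SE 0.68, adjusted p = 0.000553 by limma) and was called with each of the 8 libraries left out and by voom (adjusted p = 0.00508), but not in the fit of S4 and S3 alone (adjusted p = 0.635). By S5 it averaged 0.334 ± 0.223 RPKM and in asexual adults 0 RPKM, so among the 10 groups of the series S4 held the highest average, 12.8 ± 12.8 RPKM (SD, n = 4). inhibin beta-b (SMED30015702) stood at 23.5, 11.2, 17.6 and 7.36 RPKM in the S4 embryos, against 6.51, 5.24, 0 and 1.78 RPKM in the S3 embryos. The groups did not overlap, with S4 replicates 1 and 3 again the highest, but its log2 change of 3.09 did not pass (SE 1.01, adjusted p = 0.0878 by limma). S3 replicate 3 had no read of it.

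Of the other members of the lists, noggin-like 4 (SMED30031394), named for a BMP-binding protein, stood at 10.4, 14.2, 13.2 and 24.01 RPKM in the S4 embryos, against 10.7, 27.1, 69.2 and 33.8 RPKM in the S3 embryos. These groups overlapped, and its log2 change was -0.96 (SE 0.78, adjusted p = 0.609 by limma). The ligands inhibin beta-a and bmp-like and the inhibitors bambi-a, bambi-b, nlg-3, noggin 1 and smad6/7-2 stayed below 1 RPKM in all 8 embryos. In noggin-like 6 and smad6/7-1 the groups overlapped, with log2 changes of -2.04 and 0.70 that did not pass (SE 0.63, adjusted p = 0.0706, and SE 0.49, adjusted p = 0.534 by limma).

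**Figure D2:**
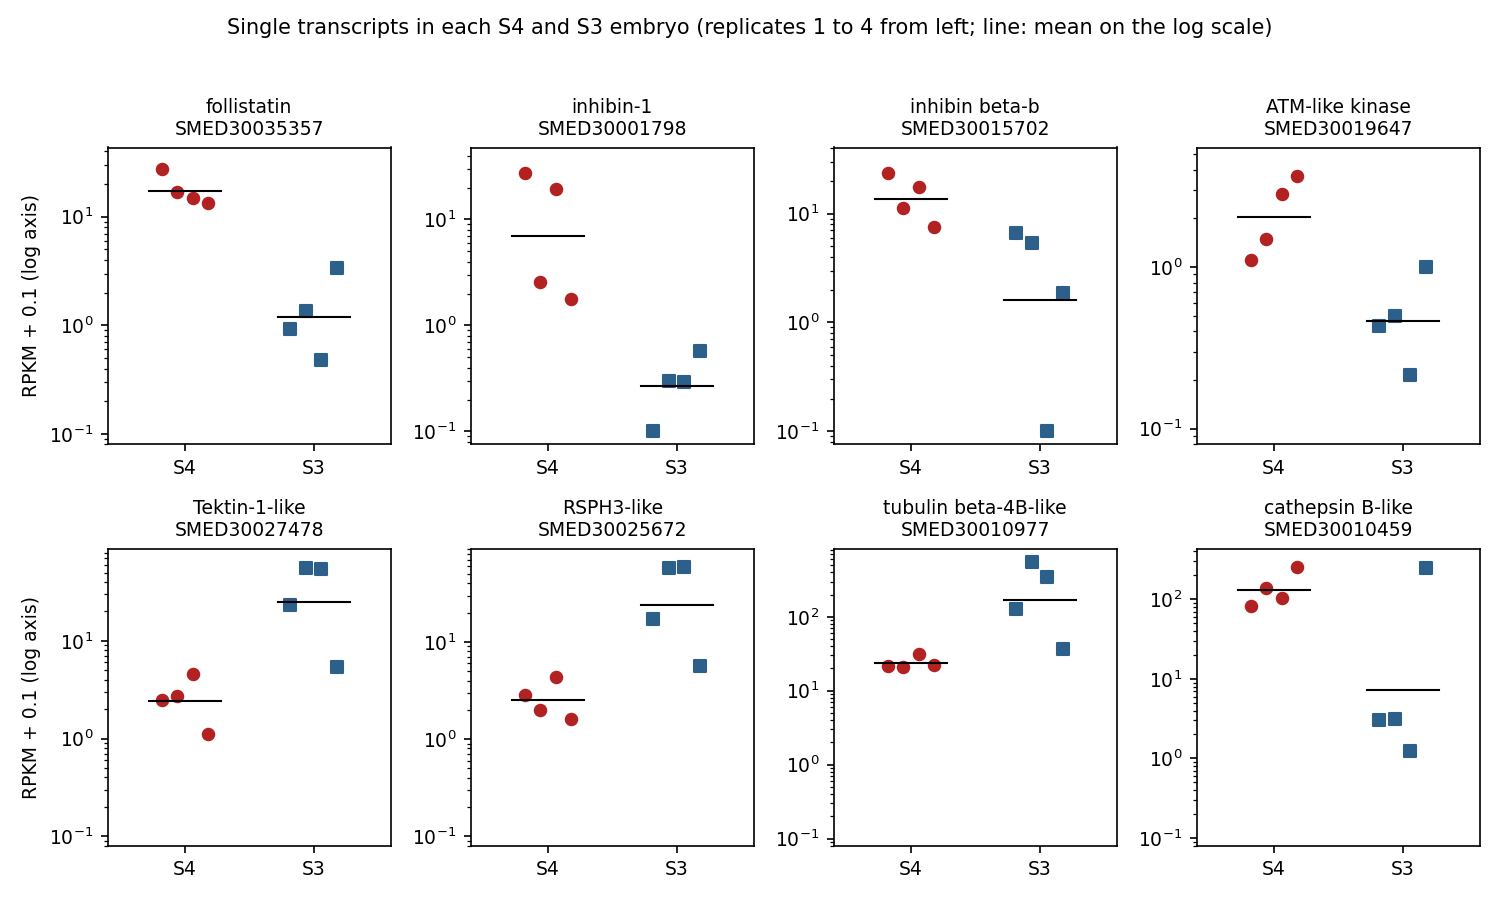
RPKM + 0.1 (log axis) of 8 transcripts in each S4 (circles) and S3 (squares) embryo, replicates 1 to 4 from left to right, with the mean on the log scale as a line. follistatin, inhibin-1 and the ATM-like transcript lie higher in all 4 S4 embryos, the Tektin-1-like, RSPH3-like and tubulin beta-4B-like transcripts lower, and for the cathepsin B-like transcript S3 replicate 4 lies at the S4 level.

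Further called rises without overlap included 3 transcripts of proteins that act on DNA, whereas the lists of DNA replication and repair and of the cell cycle, described further down, held 0 calls. The transcript annotated as serine-protein kinase ATM (SMED30019647), a kinase of the response to DNA breaks, stood at 1.003, 1.38, 2.73 and 3.55 RPKM in the S4 embryos, against 0.331, 0.399, 0.114 and 0.893 RPKM in the S3 embryos. Every S4 embryo lay above every S3 embryo, with a gap of less than 0.2 RPKM between S4 replicate 1 and S3 replicate 4. It rose by a log2 change of 2.13 (SE 0.45, adjusted p = 0.0104 by limma), and the call was lost without S3 replicate 3 (adjusted p = 0.0526). DNA polymerase alpha subunit B (SMED30009491), part of the enzyme that starts new DNA strands, stood at 14.2, 12.6, 16.4 and 21.3 RPKM in the S4 embryos, against 8.01, 8.88, 3.51 and 12.2 RPKM in the S3 embryos. Its S4 values were all higher and its log2 change was 1.08 (SE 0.27, adjusted p = 0.0247 by limma). DNA topoisomerase 2-alpha (SMED30033538), which untangles replicated DNA, stood at 13.8, 13.4, 15.2 and 19 RPKM in the S4 embryos, against 11.2, 9.17, 6.84 and 11.8 RPKM in the S3 embryos, again without overlap. It rose by a log2 change of 0.67 (SE 0.18, adjusted p = 0.0407 by limma). The polymerase subunit was not called without S3 replicates 2 or 3 or S4 replicates 3 or 4 (adjusted p of 0.0509, 0.12, 0.0557 and 0.0927). For the topoisomerase the same 4 libraries and S4 replicate 1 had this effect (adjusted p of 0.0511 to 0.158).

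A histone H2A transcript (SMED30011413) stood at 7.26, 4.68, 2.13 and 2.88 RPKM in the S4 embryos, against 0.603, 0.934, 2.09 and 2.03 RPKM in the S3 embryos. The log2 change was 1.53 (SE 0.41, adjusted p = 0.0385 by limma). The ranges touched closely, S4 replicate 3 against S3 replicates 3 and 4. The homeobox transcript hox3* (SMED30017146), of the family that patterns the body axis, stood at 10.8, 10.1, 7.601 and 7.497 RPKM in the S4 embryos, against 5.15, 3.31, 2.96 and 7.37 RPKM in the S3 embryos. This gave a log2 change of 1.00 (SE 0.28, adjusted p = 0.0428 by limma), with less than 0.2 RPKM between S4 replicate 4 and S3 replicate 4. Each of these 2 calls was lost with most single libraries left out, with an adjusted p of up to 0.13 for the histone (5 libraries, every S4 embryo but replicate 3, and S3 replicates 1 and 2) and up to 0.157 for hox3* (6 libraries, every S4 embryo, and S3 replicates 2 and 3). Also called was a transcript matched to a hypothetical fluke protein (SMED30008162), at 5.65, 2.27, 5.14 and 3.14 RPKM in the S4 embryos, against 0, 0.496, 0 and 1.83 RPKM in the S3 embryos. Its fitted log2 change was 3.57 (SE 1.02, adjusted p = 0.0487 by limma) that only the fit without S3 replicate 4 among the 8 such fits called again. A short transcript with no annotation, SMED30004086, had 1 or 2 reads in each S4 library and none in S3. That is at least 1.97-fold higher against a floor of 3 reads for all S3 libraries together, and it was the only transcript named here that the fit of S4 and S3 alone also called (adjusted p = 0.0445 by limma).

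In a second pattern S3 replicate 4 alone among the S3 embryos held the S4 level. The transcript annotated as cathepsin B (SMED30010459), a lysosomal protease, stood at 82.4, 140.1, 103 and 255 RPKM in the S4 embryos, against 2.93, 3.02, 1.13 and 245 RPKM in the S3 embryos. S3 replicate 4 lay at the top of the S4 range and the other S3 embryos far below it, and the log2 change of 4.18 was called (SE 1.16, adjusted p = 0.0445 by limma), as it was without S3 replicate 4 (adjusted p = 0.000179) but with none of the other 7 libraries left out (adjusted p of up to 0.175). A leishmanolysin-like peptidase (SMED30018299), a metal-dependent protease, stood at 13.2, 18.6, 27.01 and 24.9 RPKM in the S4 embryos, against 1.5, 0.387, 0 and 30.2 RPKM in the S3 embryos. It rose by a log2 change of 4.03 (SE 0.91, adjusted p = 0.0147 by limma) and was not called without S3 replicate 2 or 3 (adjusted p = 0.0712 and 0.0779). A forkhead box C transcription factor (SMED30000367) stood at 4.87, 2.91, 6.97 and 7.004 RPKM in the S4 embryos, against 0.2096, 0.162, 0.162 and 6.42 RPKM in the S3 embryos. On the log2 scale the change was 3.10 (SE 0.72, adjusted p = 0.017 by limma), called in 5 of the 8 fits with a library left out and not without S3 replicate 2, S3 replicate 3 or S4 replicate 4 (adjusted p = 0.0815, 0.0779 and 0.0512).

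Transcripts of cilia and centrioles were lower in S4. Motile cilia carry adult planarians over surfaces and drive fluid in their excretory tubules, and each grows from a centriole that has become a basal body. The list of 114 transcripts was drawn up by protein names after values of the comparison had been seen, from the study's tables, where 7.68% of transcripts were called lower. Its counts are therefore a description. In it 85 of 114 were called lower (74.6%), 0 were called higher by limma, and 0 by voom or at an unadjusted p under 0.05, and the median log2 change was -2.34, where the median over all transcripts was 0. All 114 fitted changes were below 0. The median of the list by embryo was 0.718, 0.581, 1.52 and 1.06 RPKM in S4, against 2.74, 10.9, 10.2 and 1.38 RPKM in S3. S3 replicates 2 and 3 were the high ones, S3 replicate 1 lay between, and S3 replicate 4 fell within the S4 range, and 24 of the 114 showed no overlap, where 1.73% of all transcripts and 5.9% of those in the tables lay lower in S4 without overlap (1.51% and 0.992% higher). Voom called 22 of them lower and the fit of S4 and S3 alone called 0. Leaving out S3 replicate 4, the count was 105, without S3 replicate 2 it was 22, without S3 replicate 3 it was 25, and without S4 replicates 1, 2 or 4 it was 55, 51 and 56. Of all 31489 transcripts, 1240, 127 and 224 were called lower without S3 replicates 4, 2 and 3.

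Calls came from each of the 6 groups of the list. Proteins inside the doublet microtubules, the rods of the ciliary shaft, were called lower in 8 of 8, with a median log2 change of -3.11. Radial spokes, the central pair and the dynein regulatory complex, which control bending, were called in 14 of 16 (median -2.73), and the dynein arms, the motors of beating, in 20 of 28 (median -2.49). The count was 15 of 23 for intraflagellar transport (median -2.08), which carries parts to the tip, and 16 of 19 for the transition zone and the BBSome (median -2.0), the gate at the base and a coat for ciliary membrane cargo. Centriole and basal body proteins gave 12 of 20 (median -1.73).

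The transcript annotated as tektin-1 (SMED30027478), a filament in the doublet wall, stood at 2.38, 2.61, 4.52 and 1.01 RPKM in the S4 embryos, against 23.04, 55.3, 54.04 and 5.28 RPKM in the S3 embryos. S3 replicate 4 was the lowest S3 embryo and S4 replicate 3 the highest S4 embryo, and they did not meet. It fell by 3.35 on the log2 scale (SE 0.62, adjusted p = 0.00427 by limma). Radial spoke head protein 3 (SMED30025672) stood at 2.76, 1.87, 4.21 and 1.51 RPKM in the S4 embryos, against 17.2, 57.6, 58.3 and 5.56 RPKM in the S3 embryos and fell by 3.26 on the log2 scale (SE 0.58, adjusted p = 0.00334 by limma), also without overlap. Sperm-associated antigen 6 (SMED30019318), a protein of the central pair that is named for sperm tails but found in other motile cilia of mammals too, stood at 3.42, 1.21, 4.73 and 2.59 RPKM in the S4 embryos, against 19.5, 73.03, 56.7 and 4.99 RPKM in the S3 embryos. The fitted change was -3.19 (SE 0.62, adjusted p = 0.00592 by limma). Its S3 replicate 4 lay just above S4 replicate 3.

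Radial spoke head 1 (SMED30011512) and tektin-4 (SMED30012757) had log2 changes of -3.68 and -3.55 (SE 0.72, adjusted p = 0.0061, and SE 0.72, adjusted p = 0.00778 by limma), but in both S3 replicate 4 lay below S4 replicate 3. Enkurin (SMED30031633), a doublet protein, stood at 0.573, 0.291, 4.296 and 0.656 RPKM in the S4 embryos, against 16.4, 71.4, 64.8 and 0.934 RPKM in the S3 embryos, with S3 replicate 4 within the S4 range and the other S3 embryos at least 3 times the highest S4 value. Its log2 change of -4.12 was called (SE 1.00, adjusted p = 0.0214 by limma), but not without S3 replicate 2 or 3 or S4 replicate 1, 2 or 4 (adjusted p of 0.0511 to 0.103). Transmembrane protein 231 (SMED30001185), of the transition zone, gave the smallest adjusted p of the list, at 0.768, 0.2603, 0.452 and 0.8204 RPKM in the S4 embryos, against 4.47, 8.65, 9.11 and 2.62 RPKM in the S3 embryos. No S4 embryo reached any S3 embryo, and the log2 change was -3.16 (SE 0.40, adjusted p = 8.32e-05 by limma).

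Among the intraflagellar transport proteins, IFT88 (SMED30035681), a core part of the train, stood at 0.455, 0, 1.37 and 0.959 RPKM in the S4 embryos, against 2.498, 13.98, 16.5 and 0.848 RPKM in the S3 embryos. The log2 change was -3.18 (SE 0.71, adjusted p = 0.0133 by limma) that was lost without S3 replicate 2 or 3 (adjusted p = 0.0721 and 0.0709). S3 replicate 4 lay within the S4 range. Centrin-2 (SMED30013731), a calcium-binding protein of centrioles, stood at 0.457, 0.9298, 2.42 and 1.05 RPKM in the S4 embryos, against 12.5, 33.5, 30.3 and 1.49 RPKM in the S3 embryos. This gave a log2 change of -3.40 (SE 0.72, adjusted p = 0.00975 by limma), lost without S3 replicate 2 (adjusted p = 0.0564). S3 replicate 4 was again the S3 embryo inside the S4 range. FoxJ1 (SMED30033757), which in vertebrates switches on genes of motile cilia, stood at 1.92, 0, 1.44 and 0.542 RPKM in the S4 embryos, against 1.48, 2.29, 9.82 and 0.207 RPKM in the S3 embryos. It overlapped and did not pass, with a log2 change of -1.46 (SE 0.73, adjusted p = 0.311 by limma).

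Of 10 tubulins, the building blocks of microtubules, 2 were called lower and 0 higher by limma, where 1.6% of all transcripts and 7.68% of those in the tables were called lower, with 0 higher at an unadjusted p under 0.05 and 0 called in either direction by voom. A tubulin beta-4B transcript (SMED30010977), a form known from cilia of mammals, stood at 21.5, 21.1, 31.1 and 22.5 RPKM in the S4 embryos, against 126, 545, 342 and 36.1 RPKM in the S3 embryos. The S4 embryos lay close together and all below the S3 embryos, a log2 change of -2.84 (SE 0.49, adjusted p = 0.00309 by limma). The other called one (SMED30008130) stood at 2.39, 13.9, 19.5 and 4.096 RPKM in the S4 embryos, against 59.1, 572, 161 and 4.58 RPKM in the S3 embryos. Its fitted log2 change was -3.28 (SE 0.94, adjusted p = 0.0499 by limma), and was called in 3 of the 8 fits with a library left out, not without S3 replicate 1, 2 or 3 or S4 replicate 1 or 4 (adjusted p of 0.0781 to 0.225). Tubulin alpha-1B (SMED30018044) stood at 4.58, 6.65, 15 and 0.599 RPKM in the S4 embryos, against 171, 448, 254 and 0.609 RPKM in the S3 embryos. S3 replicate 4 lay at the lowest S4 level and the others more than 10 times above the highest, and its log2 change of -3.84 did not pass (SE 1.22, adjusted p = 0.079 by limma). The alpha-2/alpha-4 tubulins (SMED30031235, SMED30030234 and SMED30008917), at over 70 RPKM in every S4 embryo, had log2 changes of 0.87, 0.86 and 0.07 that did not pass (adjusted p of 0.385, 0.354 and 1 by limma). Tubulins are near copies of each other, and reads of 50 bases that fit several of them may have been shared among transcripts.

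**Figure D3:**
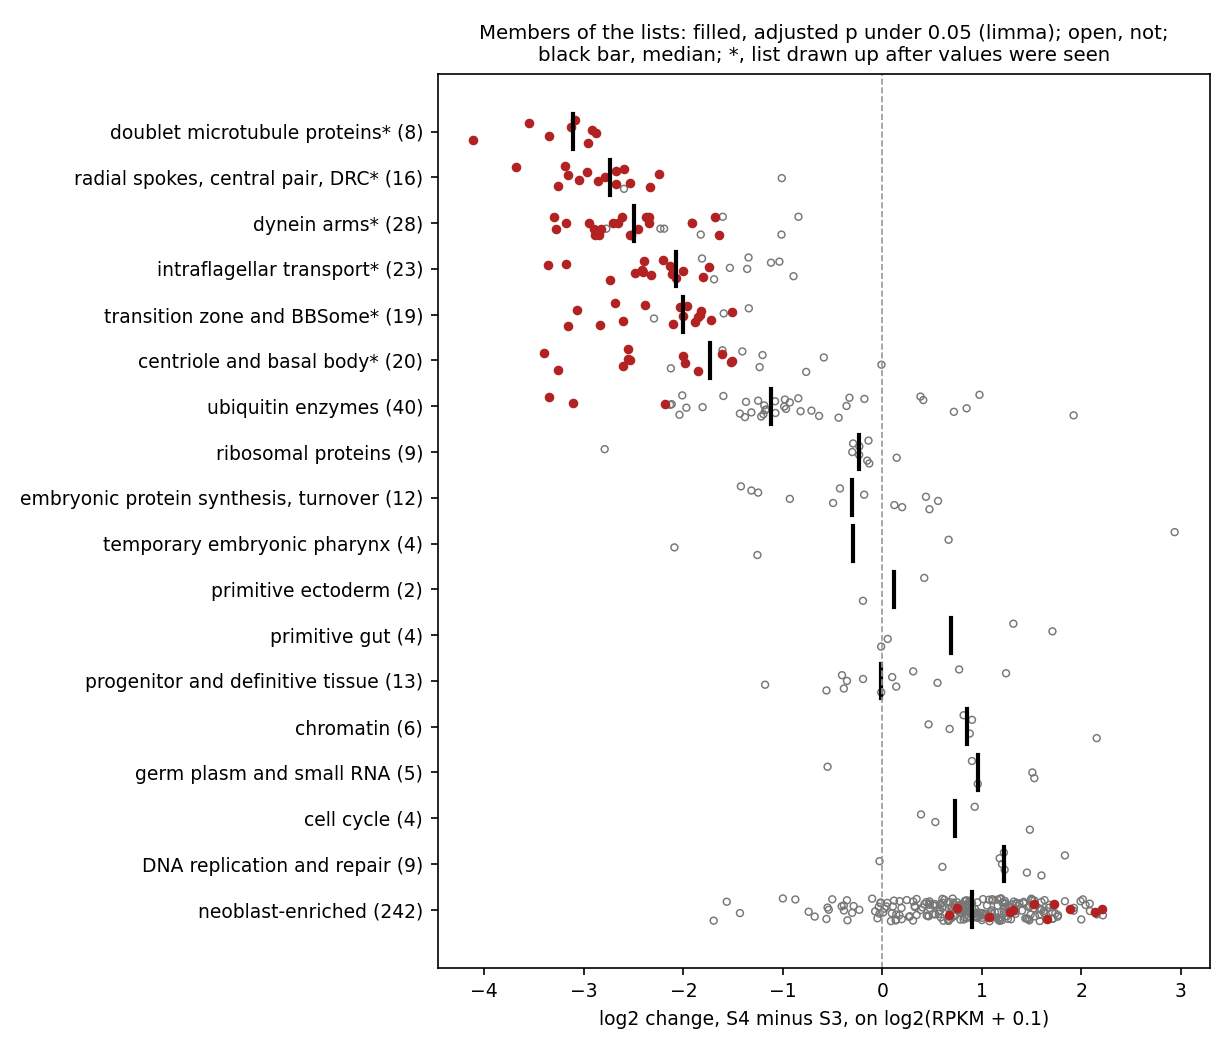
Log2 change (S4 minus S3) of each member of 18 lists, with the number of members in brackets, called members filled and the median as a black bar; lists with an asterisk were drawn up after values were seen. The 6 cilium and centriole lists lie wholly below 0, 8 of the 9 ribosomal proteins close to 0, and most neoblast-enriched transcripts above 0.

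The largest falls without overlap among annotated transcripts were of proteins of which several are known from cilia of other animals. CCDC113 (SMED30034138), which lies at centriolar satellites and in the ciliary shaft of mammals, stood at 0.196, 0, 0.519 and 0.359 RPKM in the S4 embryos, against 4.16, 8.902, 12.6 and 0.913 RPKM in the S3 embryos and fell by 3.96 on the log2 scale (SE 0.66, adjusted p = 0.0021 by limma). A protein with a sterile alpha motif (SMED30027236) was at 0.4199, 0, 0 and 0.192 RPKM in the S4 embryos, against 3.14, 12.6, 6.87 and 0.587 RPKM in the S3 embryos. On the log2 scale the change was -4.25 (SE 0.75, adjusted p = 0.00334 by limma). In both, S3 replicate 4 was the lowest S3 embryo and less than 1 RPKM from the highest S4 embryo. The protein with the motif rests on 1, 0, 0 and 1 reads in S4, against 6, 31, 17 and 3 reads in S3, so the size of its change depends on the pseudocount. Tctex1 domain-containing protein 2 (SMED30030286), a dynein light chain, CCDC81 (SMED30002256), CCDC173 (SMED30015974) and the homologs of C13orf26 (SMED30034212) and C8orf37 (SMED30035183) had log2 changes of -3.73, -3.53, -3.36, -3.71 and -3.71. All 5 were called with each of the 8 libraries left out (adjusted p of up to 0.0493 by limma), and their S4 averages lay below 1.5 RPKM. The UPF0740 homolog (SMED30020321) and a transcript matched to a hypothetical worm protein (SMED30006667), at log2 changes of -3.30 and -3.26, lost the call without S3 replicate 2 (adjusted p = 0.0891 and 0.069), S3 replicate 3 (0.0822 and 0.0651) or 1 S4 embryo, replicate 4 for the homolog (0.0581) and replicate 1 for the worm match (0.0502). The short transcript SMED30012753, with no annotation, had no read in S4 and 1, 1, 4 and 1 reads in S3, which is at least 2.88-fold lower in S4 against a floor of 3 reads for all S4 libraries together.

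Some of the transcripts were also read by Nanostring probes in the study, and the 100 bases of transcript that these probes cover are shown for 1 called transcript without overlap, 1 called transcript in which S3 replicate 4 lies at the S4 level, and 1 marker of the temporary pharynx. The first pair was picked after their values were seen, since their probe targets are listed. The bases are given 5′ to 3′ on the transcript, from base 225, base 424 and base 946 of their transcripts.
myotubularin-like SMED30004793: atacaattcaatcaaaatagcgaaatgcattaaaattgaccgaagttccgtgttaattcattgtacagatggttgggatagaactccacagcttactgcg
transformer-2 beta-like SMED30018372: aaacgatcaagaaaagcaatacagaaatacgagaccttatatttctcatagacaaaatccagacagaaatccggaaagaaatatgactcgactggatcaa
MPEG1-like-2 SMED30034696: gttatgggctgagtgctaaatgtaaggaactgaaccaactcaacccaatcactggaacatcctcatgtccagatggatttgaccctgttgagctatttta
The myotubularin-like transcript, of a family of lipid phosphatases, stood at 0.154, 0.4698, 0.272 and 0.635 RPKM in the S4 embryos, against 3.46, 5.501, 4 and 1.15 RPKM in the S3 embryos. It had 1 to 9 reads in an S4 library and 16 to 37 in an S3 library, no S4 value reached an S3 value, and it fell by 2.83 on the log2 scale (SE 0.47, adjusted p = 0.0021 by limma). The transformer-2 beta-like transcript, of a family of splicing regulators, stood at 1.59, 0.734, 3.57 and 1.79 RPKM in the S4 embryos, against 18.9, 81.7, 7.08 and 1.55 RPKM in the S3 embryos. S3 replicate 2 was by far the highest and S3 replicate 4 lay in the S4 range, and the log2 change of -2.72 (SE 0.73, adjusted p = 0.0357 by limma) was called in 2 of the 8 fits with a library left out, those without S4 replicate 3 or S3 replicate 4.

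Most neoblast-enriched transcripts had fitted changes above 0, but few of them passed the test. The study's list of neoblast-enriched transcripts was chosen by the irradiation of adult animals and not on these embryos. Of it, 11 were called higher (4.55%) and 0 lower, where 1.47% and 1.6% of all transcripts were, with 0 lower by voom and 5 at an unadjusted p under 0.05, and 216 of the fitted changes were above 0, with a median of 0.90. The median of the list by embryo was 6.85, 6.16, 9.14 and 13.5 RPKM in S4, against 4.06, 4.52, 2.17 and 9.67 RPKM in S3. S3 replicate 4 lay above 3 of the 4 S4 embryos and S3 replicate 3 lowest of all. With S3 replicate 4 left out, the count of called members was 118 higher, without S3 replicate 3 it was 1, and voom called 5. Over all 31489 transcripts these settings called 2274, 117 and 180 higher. In the other fits with a library left out, the count of called members varied too. It was 5 without S3 replicate 1, 4 without S3 replicate 2, 7 without S4 replicate 1, 3 without S4 replicate 3 and 1 without S4 replicate 4. ATM, the polymerase subunit, the topoisomerase and the histone H2A above are members of this list. So is the catalytic subunit of DNA polymerase delta (SMED30004407), which copies DNA, at 5.64, 7.08, 7.31 and 18.6 RPKM in the S4 embryos, against 0.955, 1.88, 0.536 and 9.302 RPKM in the S3 embryos. The fitted change was 2.21 (SE 0.58, adjusted p = 0.0325 by limma), lost without S3 replicate 1, 2 or 3 or S4 replicate 3 or 4 (adjusted p of 0.054 to 0.145).

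Of 5 germ plasm and small RNA genes limma and voom called 0, with 4 higher and 0 lower at an unadjusted p under 0.05, and 4 were called higher without S3 replicate 4. piwi-1 (SMED30007406), the marker of blastomeres and neoblasts, stood at 378, 344, 417 and 718 RPKM in the S4 embryos, against 217, 99.8, 43.1 and 638 RPKM in the S3 embryos. It was detected in every embryo, and S3 replicate 4 lay within the S4 range, above the other S3 embryos. Its log2 change of 1.51 did not pass (SE 0.50, adjusted p = 0.0942 by limma), and without S3 replicate 4 it was called (adjusted p = 0.00124). vasa-1 (SMED30031463), an RNA helicase of germ and stem cells, stood at 212, 208, 300.0 and 482 RPKM in the S4 embryos, against 104, 100.2, 28.7 and 307 RPKM in the S3 embryos. The log2 change was 1.53 (SE 0.44, adjusted p = 0.053 by limma). piwi-2 (SMED30014446) and piwi-3 (SMED30001362), which like piwi-1 bind small RNAs, had changes of 0.90 and 0.96 (SE 0.32, adjusted p = 0.118, and SE 0.32, adjusted p = 0.0921 by limma). The same S3 embryo lay in the S4 range in all of these.

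DNA replication and repair gave 0 of 9 called in either direction by limma and by voom, with 8 higher and 0 lower at an unadjusted p under 0.05 and a median change of 1.22. MCM2 (SMED30006979), part of the helicase that opens DNA for copying, stood at 40.5, 35.98, 51.9 and 89.05 RPKM in the S4 embryos, against 17.8, 14.6, 3.52 and 43.98 RPKM in the S3 embryos. This gave a log2 change of 1.83 (SE 0.53, adjusted p = 0.0512 by limma). PCNA (SMED30004304), the clamp that holds polymerases on DNA, stood at 145, 92.8, 168 and 311 RPKM in the S4 embryos, against 59.3, 61.5, 9.46 and 241 RPKM in the S3 embryos. Its fitted log2 change was 1.60 (SE 0.70, adjusted p = 0.229 by limma). S3 replicate 3 was lowest and S3 replicate 4 within the S4 range in both. Only RRM2-2 (SMED30010115), a subunit of the enzyme that makes deoxynucleotides, had a change below 0 (-0.03, SE 0.24, adjusted p = 1 by limma). Without S3 replicate 4, 7 of the 9 were called higher, where 2274 of all 31489 transcripts were. The mismatch repair gene msh6, the clamp loader RFC2, the helicase subunit MCM5, fancd2-like and RRM2 had changes of 1.45, 1.22, 1.20, 1.23 and 0.60.

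In the cell cycle list 0 of 4 were called by limma or voom, with 1 higher at an unadjusted p under 0.05. Cyclin B-2 (SMED30005246), which drives entry into mitosis, stood at 15.8, 14.9, 24.5 and 32.3 RPKM in the S4 embryos, against 8.7, 8.64, 1.27 and 29.5 RPKM in the S3 embryos. On the log2 scale the change was 1.48 (SE 0.61, adjusted p = 0.191 by limma). In the chromatin list 0 of 6 were called by limma or voom, with 3 higher at an unadjusted p under 0.05, and all 6 changes were above 0, from 0.46 for HMG-2 (SMED30027770) to 2.15 for the histone methyltransferase NSD-1 (SMED30009651). Without S3 replicate 4, 4 of the 6 chromatin and 1 of the 4 cell cycle transcripts were called higher. Of 11 histones 2 were called higher, where 1.47% of all transcripts were, the H2A above and an H2B (SMED30021461) at 29.3, 28.4, 27.3 and 21.5 RPKM in the S4 embryos, against 9.12, 5.81, 2.07 and 35.2 RPKM in the S3 embryos. The fitted change was 1.72 (SE 0.47, adjusted p = 0.0409 by limma). Its S3 replicate 4 was the highest of the 8, and the call held only without S3 replicate 4 (adjusted p = 9.92e-05), the other 7 such fits giving up to 0.192.

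**Figure D4:**
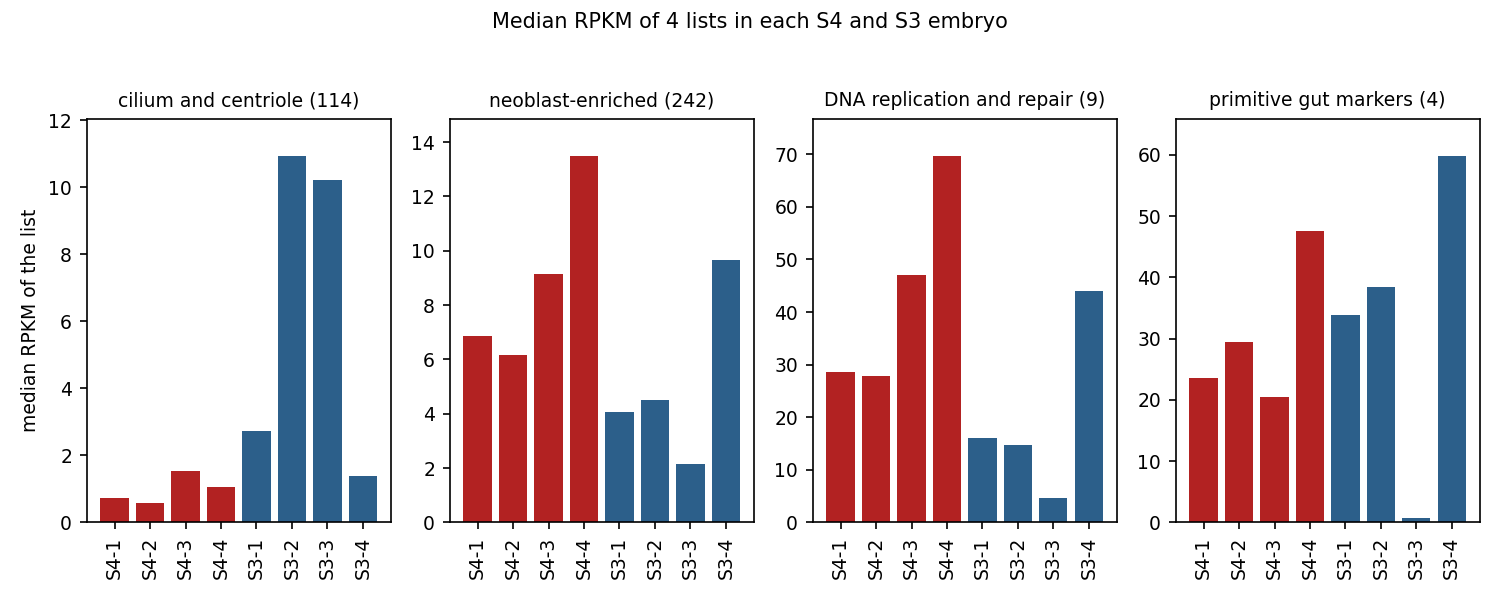
Median RPKM of 4 lists (number of transcripts in brackets) in each embryo, S4 replicates 1 to 4 in red and S3 replicates 1 to 4 in blue. S3 replicate 4 lies within the S4 range in the cilium, neoblast-enriched and replication lists, whereas S3 replicate 3 has the lowest replication and primitive gut medians.

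Markers of the temporary tissues were present in both stages, and 0 of 10 were called by limma or by voom, with 1 lower and 0 higher at an unadjusted p under 0.05. The marker MPEG1-like-2 (SMED30034696) of the temporary pharynx, of a family of pore-forming proteins of immune cells, stood at 4.32, 4.39, 7.18 and 7.91 RPKM in the S4 embryos, against 39.4, 72.4, 18.9 and 6.89 RPKM in the S3 embryos. Only S3 replicate 4 lay in the S4 range, and its change of -2.09 did not pass (SE 0.69, adjusted p = 0.092 by limma), whereas without S3 replicate 4 it was called (adjusted p = 0.0101). MPEG1-like-1 (SMED30000139) stood at 13, 14.8, 12.6 and 24.03 RPKM in the S4 embryos, against 56.8, 93.3, 23.3 and 15.5 RPKM in the S3 embryos. The log2 change was -1.26 (SE 0.66, adjusted p = 0.344 by limma). VAL-like (SMED30015313), a secreted protein of the venom allergen family and the pharynx marker with the highest RPKM, stood at 579.9, 1117, 1035 and 783 RPKM in the S4 embryos, against 504, 392, 1.16 and 612 RPKM in the S3 embryos. S3 replicate 3 held hardly any and S3 replicate 4 lay in the S4 range, and the change of 2.94 did not pass (SE 1.70, adjusted p = 0.409 by limma). netrin-like (SMED30023593), named for an axon guidance cue, stood at 33.1, 33.8, 26.96 and 39.03 RPKM in the S4 embryos, against 42.98, 13.4, 6.44 and 49.3 RPKM in the S3 embryos, with both stages overlapping.

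The primitive ectoderm markers gelsolin-like (SMED30014940) and spondin1-like (SMED30032088) had changes of -0.19 and 0.42 (SE 1.01, adjusted p = 1, and SE 1.34, adjusted p = 1 by limma). gelsolin-like stood at 179, 245, 207 and 287 RPKM in the S4 embryos, against 276, 506, 67.9 and 471 RPKM in the S3 embryos. The primitive gut markers had a median by embryo of 23.5, 29.5, 20.5 and 47.6 RPKM in S4, against 33.8, 38.4, 0.722 and 59.9 RPKM in S3. CTSL-like (SMED30023322), a cathepsin L, stood at 51.3, 116, 108 and 224 RPKM in the S4 embryos, against 34.8, 38.2, 2.33 and 389 RPKM in the S3 embryos. This gave a log2 change of 1.71 (SE 1.27, adjusted p = 0.569 by limma). LYAG-like (SMED30028442), which resembles a lysosomal glucosidase, stood at 10.3, 12.1, 7.27 and 17.8 RPKM in the S4 embryos, against 32.8, 38.7, 0.405 and 22.5 RPKM in the S3 embryos. Its fitted log2 change was 0.05 (SE 1.06, adjusted p = 1 by limma). In each gut marker S3 replicate 3 was far below the other 7 embryos, and in that embryo the pharynx markers VAL-like and netrin-like and both ectoderm markers were also the lowest of S3, while its yolk share was the highest. The MPEG1-like markers went another way there, with S3 replicate 4 the lowest S3 embryo in both. Without S3 replicate 3, limma called 0 of the 10 markers, and without S3 replicate 4 it called 1 lower and 0 higher. Of the wider family of 10 MPEG1 transcripts limma and voom called 0, with 3 lower and 0 higher at an unadjusted p under 0.05 and a median change of -1.12, and 2 were called lower without S3 replicate 4. The family of 22 venom allergen and GLIPR transcripts also gave 0 calls by limma or voom (2 lower and 0 higher at an unadjusted p under 0.05), and of 15 lysosomal hydrolases 1 was called higher, the cathepsin B above, where 1.47% of all transcripts were.

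Transcripts that the study groups as enriched in early embryos differed in their share of calls. These groups were chosen on these samples, so their direction is not independent evidence. Over all transcripts 1.47% were called higher and 1.6% lower, and in the study's tables the shares were 0.966% and 7.68%. Of the 413 transcripts of its cluster 5, 132 were called lower (31.96%) and 0 higher, with 0 higher at an unadjusted p under 0.05, and the median change was -1.51. Of 523 in cluster 6, 25 were called lower (4.78%) and 0 higher (4 at an unadjusted p under 0.05), with a median of -1.27, a share below that of the tables, and of 112 in cluster 8, 3 were called higher (2.68%) and 0 lower, with a median of 0.80. Voom called 58 lower in cluster 5, 5 lower in cluster 6 and 3 higher in cluster 8. In the fit that left out S3 replicate 4 the counts lower were 203 and 235 in clusters 5 and 6, and without S3 replicate 3 they were 48 and 24. Over all 31489 transcripts these fits called 1240 and 224 lower. In cluster 8 the count higher was 12 without S3 replicate 4 and 1 without S3 replicate 3, where 2274 and 117 of all transcripts were.

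In cluster 5 the 3 largest falls of transcripts with at least 1 RPKM in a stage included a roadblock-type dynein light chain (SMED30014345), a part of motor complexes, at 0, 0, 1.46 and 0.7597 RPKM in the S4 embryos, against 8.96, 32.04, 25.01 and 0.772 RPKM in the S3 embryos. S3 replicate 4 lay inside the S4 range, and the log2 change was -4.71 (SE 0.78, adjusted p = 0.0021 by limma). In cluster 6 they included a PRP4-like kinase (SMED30035185), a kinase of the splicing machinery, at 0, 0, 0.816 and 0.0706 RPKM in the S4 embryos, against 1.73, 28.6, 1.48 and 0.502 RPKM in the S3 embryos. On the log2 scale the change was -3.74 (SE 0.80, adjusted p = 0.0105 by limma), lost without S3 replicate 2 (adjusted p = 0.0546). S3 replicate 2 stood far above the others. A further list, chosen without S4 and S3, held 787 transcripts that averaged at least 10 RPKM in S2 and at least 10-fold their yolk level. Of these, 90 were called lower (11.4%) and 0 higher (0 by voom, 13 at an unadjusted p under 0.05), with a median of -1.16. The share called lower was 1.6% over all transcripts and 7.68% over those in the tables, with no such minimum level in S2. Without the transcripts of the cilium list, 65 of 758 were called lower (8.58%). In the whole S2 list voom called 27 lower, and the count was 310 without S3 replicate 4 and 40 without S3 replicate 3. Of all 31489 transcripts, 171, 1240 and 224 were called lower in these fits.

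Few transcripts of protein turnover and synthesis were called. Of 40 ubiquitin enzymes, which tag proteins for removal, 3 were called lower (7.5%) and 0 higher (3 at an unadjusted p under 0.05), with a median of -1.12, and voom called 0. Their share lies at that of the study's tables, 7.68%. The ubiquitin-conjugating enzyme E2 21 (SMED30018645) stood at 0.242, 0.0615, 0.3204 and 0.0831 RPKM in the S4 embryos, against 4.83, 8.77, 1.57 and 0.225 RPKM in the S3 embryos. The fitted change was -3.11 (SE 0.63, adjusted p = 0.00763 by limma), and S3 replicate 4 lay in the S4 range. Without S3 replicate 4, 15 were called lower, and without S3 replicate 3, 1 was. The 12 embryonic transcripts for protein synthesis and turnover gave 0 called by limma or voom and 0 at an unadjusted p under 0.05, among them UbE2 N-like (SMED30009880) at 77.7, 107, 149.6 and 93.1 RPKM in the S4 embryos, against 581, 1443, 130.2 and 40.7 RPKM in the S3 embryos. S3 replicates 1 and 2 were high there, S3 replicate 3 lay in the S4 range and S3 replicate 4 below it. Of 24 translation factors, 1 was called lower, an eIF2 subunit (SMED30020990), which brings the first tRNA to the ribosome, at 7.44, 6.47, 10.1 and 7.34 RPKM in the S4 embryos, against 69.3, 116, 18.6 and 5.47 RPKM in the S3 embryos. The log2 change was -1.95 (SE 0.55, adjusted p = 0.0467 by limma), and 0 were called higher by limma, with 1 higher at an unadjusted p under 0.05. Voom called 0 translation factors. Without S3 replicate 4 limma called 4 translation factors lower, and with a library left out only the fit without S3 replicate 4 called the eIF2 subunit (adjusted p = 0.000142), the others giving up to 0.217. Of 9 ribosomal proteins 0 were called by limma or voom, with 1 lower at an unadjusted p under 0.05 and a median of -0.23. That one (SMED30007461), the least abundant of the list, stood at 0, 0, 0.549 and 0 RPKM in the S4 embryos, against 0.776, 0.601, 2.396 and 0.8695 RPKM in the S3 embryos, without overlap, and its log2 change of -2.79 did not pass (SE 0.95, adjusted p = 0.102 by limma).

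In the progenitor and definitive tissue list 0 of 13 were called by limma or voom, with 2 higher and 1 lower at an unadjusted p under 0.05. prog-1 (SMED30035904), a marker of epidermal progenitors, stood at 2.72, 4.85, 3.903 and 4.36 RPKM in the S4 embryos, against 1.697, 9.86, 7.86 and 4.595 RPKM in the S3 embryos. AGAT-1 (SMED30018353), a marker of later epidermal progenitors, stood at 1.23, 1.97, 2.48 and 2.498 RPKM in the S4 embryos, against 0.878, 3.398, 9.48 and 1.64 RPKM in the S3 embryos. The groups overlapped in both. Their S5 averages were 76.6 ± 41.4 and 94.5 ± 57.9 RPKM (SD, n = 4). The zinc finger gene zfp-1 (SMED30023708), which acts in epidermal progenitors, stood at 1.92, 1.95, 3.38 and 5.37 RPKM in the S4 embryos, against 0.298, 0.925, 0.921 and 5.91 RPKM in the S3 embryos. Its change of 1.24 did not pass (SE 0.59, adjusted p = 0.275 by limma), with S3 replicate 4 the highest of all 8. The gut genes hnf-4 (SMED30005748) and gata456a (SMED30007290) were above 40 RPKM in all 8 embryos with changes of -0.01 and -0.19, and their yolk averages, 187 ± 24.5 and 182 ± 45.3 RPKM (SD, n = 4), lay above those of S4 and S3.

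Lists of developmental regulators held few calls. Of 36 transcripts annotated as homeobox factors, a list that does not hold hox3* above, 8 Wnt signalling genes and 10 FGF and EGF receptors, limma and voom called 0, with 2, 0 and 1 higher and 0 lower in each at an unadjusted p under 0.05. Without S3 replicate 4 the counts called higher were 2, 0 and 1. Of 27 forkhead, Sox, GATA and T-box factors limma called 1 higher, the forkhead box C factor above, and 1 lower, a protein with a forkhead-associated domain (SMED30025883), which is a phosphopeptide-binding domain and not a DNA-binding one. It stood at 0.7503, 0.218, 0.993 and 0.491 RPKM in the S4 embryos, against 1.67, 6.42, 4.28 and 1.22 RPKM in the S3 embryos. This gave a log2 change of -2.15 (SE 0.47, adjusted p = 0.0129 by limma), lost without S3 replicate 2 or 3 (adjusted p = 0.0721 and 0.0548). Of the 36 homeobox factors 17 had at most 3 reads in each stage in all, as had 8 of the 27 factors of the other list. Of the adult neoblast subclass lists, zeta had 1 of 51 higher and 2 lower, gamma 0 of 45 higher and 1 lower, and sigma 1 of 76 higher and 1 lower, where 1.47% and 1.6% of all transcripts were called. For the gamma list voom called 0 higher and 1 had an unadjusted p under 0.05.

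Yolk transcripts made up a large share of each of the 8 libraries. Of 515 in the yolk list 2 were called lower and 0 higher (0 by voom, 4 at an unadjusted p under 0.05), and the median change was -0.05. Their share of the reads was 67.5, 68.7, 62.5 and 51.6% in the S4 embryos, against 59.4, 44.3, 74.4 and 57.2% in the S3 embryos. The cilium medians of S3 replicates 2 and 3, with the least and the most yolk, were 10.9 and 10.2 RPKM. Whether the yolk share bears on the cilium levels was not tested. When RPKM was rescaled to the reads outside the yolk list, a setting chosen after seeing the data, 275 transcripts were called higher and 337 lower, with 61 of the 114 cilium transcripts called lower.

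Over the whole series the called transcripts followed separate courses. The 130 called higher without overlap had a median, averaged over the libraries of a group, of 7.15 ± 0.542 RPKM at S2 and 7.51 ± 1.98 at S3, then 13.8 ± 1.15 at S4 and 14.01 ± 0.966 at S5, and 10.2 ± 0.557 at S6 (SD, n = 4 each). The 207 called lower stood at 6.07 ± 2.33 RPKM at S2 and 7.46 ± 4.52 at S3, then 1.33 ± 0.315 at S4, 2.59 ± 0.902 at S5 and 4.53 ± 0.168 at S6, and 7.35 ± 0.422 in asexual adults. They were chosen on S4 and S3, so those levels are a description. The cilium list gave 0.113 ± 0.0715 RPKM for yolk, 5.26 ± 2.18 at S2 and 6.32 ± 4.96 at S3, then 0.971 ± 0.4201 at S4, 2.699 ± 1.09 at S5 and 4.24 ± 0.213 at S6, and 5.74 ± 0.296 in asexual adults. S4 was the lowest of the 7 embryo stages in it, and yolk, at 0.113, lower still.

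**Figure D5:**
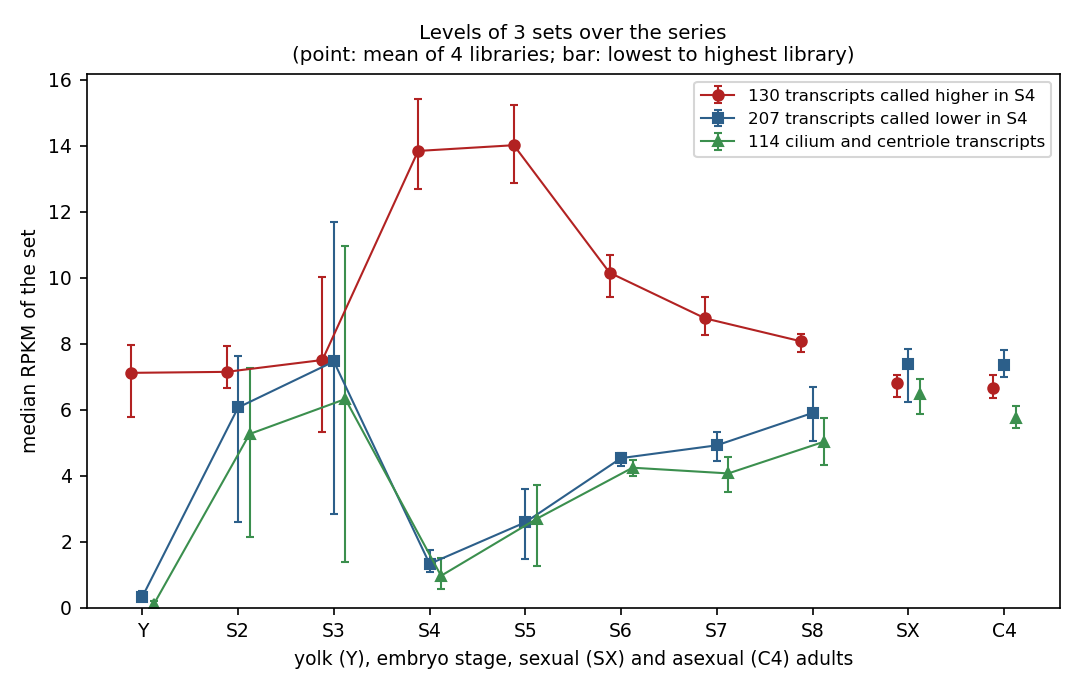
Median RPKM of the 130 transcripts called higher, the 207 called lower (both without overlap) and the 114 cilium and centriole transcripts over yolk (Y), embryo stages S2 to S8, sexual (SX) and asexual (C4) adults; points are means of 4 libraries and bars run from the lowest to the highest library. The lower set and the cilium list dip at S4, at 1.33 and 0.971 RPKM, and the higher set stands highest at S4 and S5.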

How the data were processed

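Single whole embryos were sequenced as polyA-selected TruSeq libraries (50-base single-end reads), per the study's methods. Reads were demultiplexed with CASAVA 1.8.2 and aligned with Bowtie to an S. mediterranea transcriptome (2 mismatches, up to 5 sites). The authors deposited RPKM values, scaled by edgeR's TMM factors, for 35262 transcripts and 40 samples; no genome coordinates were used here. The values were whole reads within a tolerance of 0.01, so reads per transcript were rebuilt (100.0% whole). The main fit used limma 3.58.1 (R 4.3.3) on log2(RPKM + 0.1) over the 32 yolk and S2 to S8 samples, for 31489 transcripts with an RPKM sum of at least 1, with S4 minus S3 as the contrast and Benjamini-Hochberg adjustment; limma voom on the rebuilt reads was an alternative. Tables were handled with pandas 2.3.3 and numpy 2.4.6 in Python 3.11.15. The fit was also run on simulated data with the same dispersion between replicates in every group. The real groups differ in spread, so that run does not check the calls for this pair of stages. Named are up to 10 annotated transcripts per direction with the largest called change without overlap (at least 1 RPKM). Of all 130 called rises without overlap at that level, only 8 are in the study's tables, which supply the names. Also named are the 3 largest changes of each direction, members of lists of 12 or fewer, and piwi-1. Of larger lists the 3 largest rises and falls are named. Named outside this rule, after their values were seen, are the transcripts with probe targets, cilium proteins and tubulins. Names come from the study's tables and cover part of the transcripts. The study's methods call the libraries single-stranded, but the alignment settings they give restrict no strand. Reads of copies and antisense transcripts may therefore be mixed. Members and lists were chosen with earlier results of these data known, the cilium list after its values were seen. Alternatives changed the samples fitted, pseudocount, filter, scaling, weights and replicate block, and left out each library in turn.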

Additional observations from a re-analysis of the deposited data

Results flagged for a closer look

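In 16 of 256 groups of 4 embryos, 1 embryo stood far from the rest by Dixon's test, where chance gives about 1 in 20. The number flagged lies near that share, and flags overlap where a flagged transcript belongs to a flagged list. S3 replicate 3 accounted for 7 of them. Its log2(RPKM + 0.1) levels were 0.34 for the pharynx marker VAL-like, -0.27 for the gut marker LYAG-like-2 and -0.99 for LYAG-like, and its list medians were 2.97 for primitive ectoderm, -0.28 for primitive gut, -0.047 for lysosomal hydrolases and 0.72 for cluster 8 of the early embryo transcripts, each below the other S3 embryos. Its 74.4% yolk share was the highest of the 8 libraries.

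S3 replicate 4 stood apart with 2.81 for the transcription factor soxP-2 and with a median of -1.66 for the 4 TGF-beta ligands, whose median RPKM there was 0.274. S3 replicate 1 stood apart with a median of -3.32 for FGF and EGF receptors, which is 0 RPKM. In S4, replicate 3 stood at 1.55 for SMED30004086, a transcript of 1 or 2 reads per library, replicate 1 at 7.60 for the ribonucleotide reductase subunit RRM2, and replicate 4 at 7.99 for the histone variant h2a.z-1 and at -0.87 for the median of the venom allergen and GLIPR family. S4 replicate 2 stood at 3.88 for H2A-like (SMED30010862), which is also the median of the list of 5 nuclear proteins of embryonic cells, 3.88.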

How the results depend on the processing

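Embryos were sequenced with 1 replicate of each stage per lane, per the study's methods, so same-numbered embryos may share a lane, but the labels do not tie the numbers to lanes. The correlations of deviations of same-numbered S4 and S3 embryos were 0.24, -0.07, -0.04 and 0.45, so not every pair deviated together, and 2 of the 4 S4 embryos correlated best with their own number. With the number as a replicate block limma called 465 higher and 510 lower, against 463 and 505 without it, and of the named transcripts 3 gained and 3 lost a call. The count called higher was 13 in the fit of S4 and S3 alone, 4 over S2 to S5, 180 with voom, 35 without the TMM factor, 275 scaled to reads outside the yolk list and 1636 without S3 replicates 3 and 4 (the last pair of settings was chosen after seeing the data), and 117 to 2274 with single libraries left out. The count called lower was 4, 1, 171, 201 and 1411 in the fit alone, S2 to S5, voom, without TMM and without S3 replicates 3 and 4, was 302 with a pseudocount of 0.01, and ran between 127 and 1240 with single libraries left out. At the study's limits 1 was higher with a pseudocount of 1, 5 higher and 13 lower without S3 replicates 3 and 4, and 0 to 12 higher and 0 to 14 lower with single libraries left out. Of the cilium list 0 were called lower in the fit alone and over S2 to S5, 39 with a pseudocount of 0.01, 22 with voom, 40 without TMM, and 22 to 105 with single libraries left out. Of the neoblast-enriched list 0 were called higher in the fit alone and over S2 to S5, 22 with at least 1 RPKM in 4 samples, 7 and 27 with pseudocounts of 0.01 and 1, 5 with voom, 5 scaled outside the yolk list, 1 without TMM, 49 without S3 replicates 3 and 4, and 1 to 118 with single libraries left out. The causes were not tested. An NFX-1-like transcript (SMED30018638) changed direction, from 0.14 in log2 to -1.97 without S3 replicates 3 and 4. For the 221 named transcripts in 21 settings, 343 values lost a call, 116 gained one and 124 moved, and of 45 list medians 8 values moved by more than the spread between replicates. Depth limits transcripts with few reads, such as SMED30004086 and SMED30012753.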
